A study of Mus musculus with 4 samples.

Results

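The genes described here are the potassium channel genes of the mouse, taken as the autosomal protein-coding genes of the RefSeq annotation whose symbols start with Kcn. Of 94 such genes 2 lie on the X chromosome and 2 others were not part of the set, which left 90 genes of 20661 autosomal coding genes. The peaks came from Bruce-4, a line of embryonic stem cells of the C57BL/6J strain, cultured in medium with serum, 2i and LIF, with no treatment or genetic change named. ChIP-exo, in which an exonuclease trims immunoprecipitated DNA, was done with antibodies against H3K4me3 (1 library), CTCF (2 libraries) and RAD21 (1 library). There was 1 peak list per antibody, and for CTCF this was a union list. The lists give positions only, so depth and peak height were unknown and no difference between samples could be tested.

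The autosomes had 21006 peaks of H3K4me3, with a median length of 683 bp. There were 50546 peaks of CTCF (median 104 bp) and 74004 of RAD21 (median 141 bp). An end of a gene was called marked where a peak overlapped the window of 1 kb on either side of it. Intervals beside shares are Wilson 95% intervals and cover counting error only. Where no peak is given below, none was called, which does not show that the site was free. A site bound in some of the cells cannot be told apart from a site bound weakly in all. The cell type on the label was checked against marker genes. H3K4me3 lay at an end of 9 of 10 embryonic stem cell markers (median length 1710 bp). It lay at 4 of 6 neuron markers (median 420 bp), 2 of 6 cardiac muscle markers (675 bp) and 1 of 6 fibroblast markers (432 bp). Over all autosomal coding genes the share was 57.9% and the median length at marked genes 926 bp. The neuron share (66.7%) was also above that of all genes, so the counts alone do not set stem cells apart from neurons.

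Potassium channels let potassium ions leave or enter the cell and so set the resting potential and end action potentials. Most of these genes are known from neurons, heart, muscle, kidney and glands rather than from stem cells. H3K4me3 is a histone mark of promoters that are active or poised, CTCF is a DNA-binding factor at which the loop-forming cohesin complex stops, and RAD21 is a subunit of the cohesin ring. Promoters rich in CpG dinucleotides commonly carry H3K4me3 even where transcription is low.

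A minority of the channel genes carried H3K4me3 at an end. The mark was found at 42 of 90 (46.7%, 36.7 to 56.9%), against a background of 57.9% of all autosomal coding genes. Without the genes that share an end with another coding gene, the share was 36 of 75 (48%), against 50.6% of all such genes, a much smaller gap. CTCF lay at an end of 23 genes (25.6%, 17.7 to 35.4%; background 27.2%) and RAD21 at 31 (34.4%, 25.4 to 44.7%; background 39.4%), shares near those of all genes. All 3 marks were at ends of 12 genes (13.3%, background 18.4%), among them Kcnk12 and Kcng3, and 34 genes had none of the 3 (37.8%, background 34.4%). When every peak inside the gene was counted as well, 10 genes had no peak of any list. These were Kcne1, Kcne2, Kcne4, Kcnj13, Kcnj15, Kcnk7, Kcnk16, Kcnk18, Kcnmb1 and Kcnrg.

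The strand was known for 67 genes, 66 of them longer than 2 kb, so that start and far end could be told apart. H3K4me3 lay at the start of 26 of the 66 (39.4%, against 62.0% of 14541 genes of all kinds) and at the far end of 3 (4.55%, against 5.00%). The 3 far ends were those of Kcnj6, Kcnk12 and Kcnh2. RAD21 lay at 17 starts (25.8%, against 35.4%) and 7 far ends (10.6%, against 11.3%). CTCF lay at 11 starts (16.7%, against 22.1%) and 6 far ends (9.09%, against 9.78%). Genes that share an end were kept in these counts. The start here was the outermost position of the annotated gene, and starts listed inside the gene were not counted. With H3K4me3 counted within 1 kb of any listed start, 33 of 67 channel genes had it (49.3%), against 60.3% of all genes with a listed start.

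**Figure D1:**
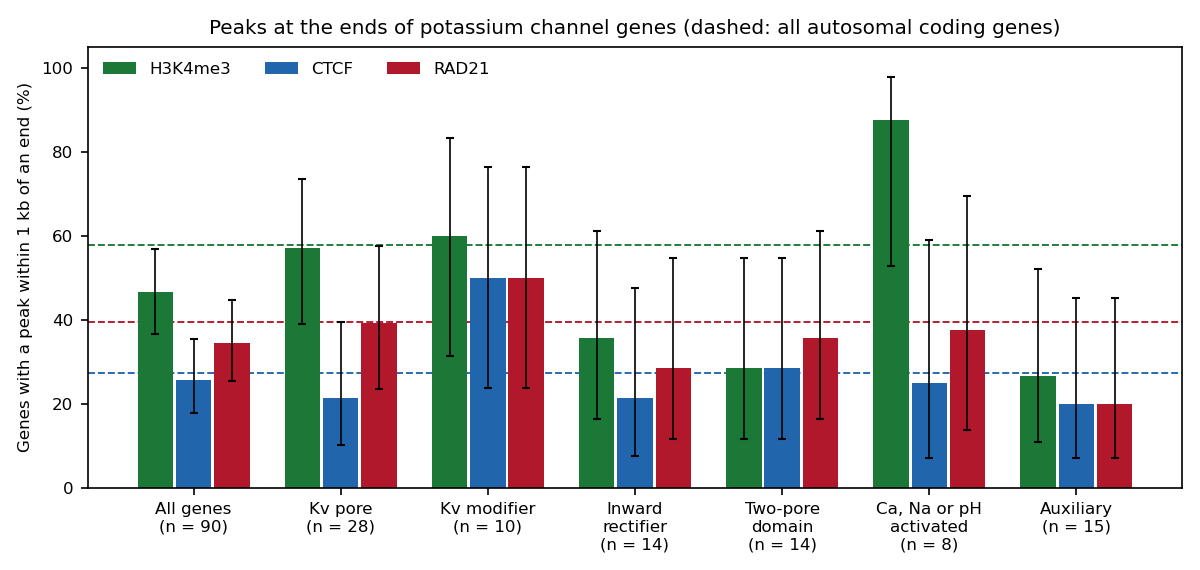
Share of channel genes (y axis, percent) with H3K4me3, CTCF or RAD21 within 1 kb of an end, by role of the encoded subunit (x axis), with Wilson 95% intervals; dashed lines mark the shares of all autosomal coding genes (57.9, 27.2 and 39.4%). H3K4me3 was at 7 of 8 calcium, sodium or pH activated channel genes and at 4 of 15 auxiliary subunit genes.

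Among the 28 genes for pore-forming voltage-gated subunits, 16 had H3K4me3 at an end, 6 had CTCF and 11 had RAD21. H3K4me3 spanned 1048 bp at Kcnq3, which encodes a subunit of the neuronal M-current, and 1135 bp at Kcnq5, and neither gene had RAD21 at an end. Of the Kcnh genes, the family of ether-a-go-go channels, 2 of 8 were marked. These were Kcnh3, with 1436 bp, and Kcnh2, which carries a repolarising current of the heart, with 398 bp at its annotated start and 538 bp at its far end. RAD21 was at an end of 4 of the 8 Kcnh genes, and at Kcnh1, Kcnh5 and Kcnh6 it stood without H3K4me3.

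Of the 8 Kcna genes, the Shaker family, 4 were marked. The peaks spanned 816 bp at Kcna3, 632 bp at Kcna6, 481 bp at Kcna7 and 387 bp at Kcna5. Kcnb2, which encodes a delayed rectifier, had H3K4me3 (675 bp) and RAD21 at the same end. Both Kcnd genes, which encode subunits of fast inactivating A-type currents, were marked as well, with 1029 bp at Kcnd2 and 321 bp at Kcnd3. Kcnc4 (1364 bp) and Kcnc2 (437 bp), of a family known from fast-spiking neurons, were marked at an end.

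The modifier subunits give no current of their own and alter that of delayed rectifier subunits. H3K4me3 was at 6 of 10 of their genes, CTCF at 5 and RAD21 at 5. The longest peaks were at Kcng2 (1162 bp), Kcng1 (1072 bp), Kcns3 (992 bp) and Kcns2 (808 bp), followed by Kcnf1 (553 bp). Kcng3 had 3 separate peaks at its start, of 432, 459 and 470 bp. The other 4, Kcng4, Kcns1, Kcnv1 and Kcnv2, had none at an end.

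Of 14 inward rectifier genes (Kcnj), 5 had H3K4me3 at an end, 3 had CTCF and 4 had RAD21. The longest peak at an end of any channel gene, 1675 bp, was at Kcnj12, which encodes a strong inward rectifier of muscle and heart. The start listed for Kcnj12 in the promoter table had no H3K4me3 within 1 kb. The other peaks spanned 667 bp at Kcnj8, the pore of a vascular ATP-sensitive channel, 458 bp at Kcnj10, the main rectifier of glia, and 400 bp at Kcnj5. At Kcnj6, a rectifier gated by G proteins, a 552 bp peak lay at the far end while the annotated start at the other end had none. Another listed start, inside the gene, had a 294 bp peak within 1 kb.

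The K2P channels (Kcnk) carry background, or leak, currents. H3K4me3 was at an end of 4 of their 14 genes, CTCF at 4 and RAD21 at 5. The peaks spanned 1333 bp at Kcnk5, 957 bp at Kcnk4, 721 bp at Kcnk6, and 640 and 695 bp at the start and far end of Kcnk12. Of the 14 genes 8 had no mark at either end.

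The channels opened by calcium, sodium or pH were the role with the largest marked share, 7 of 8 (87.5%, 52.9 to 97.8%; background 57.9%). With 8 genes the interval took in the background. The longest peak at an end, 1529 bp, was at Kcnma1, which encodes the large-conductance calcium-activated channel. Kcnu1, its sperm relative, had 1350 bp. That end of Kcnu1 lies within 1 kb of an end of Ash2l, so the peak cannot be assigned to either gene alone. The sodium-activated channel genes had 1208 bp (Kcnt2) and 316 bp (Kcnt1, the shortest of the marked genes). The small-conductance genes had 755 bp (Kcnn2), 686 bp (Kcnn3) and 594 bp (Kcnn1). The exception, Kcnn4, the intermediate-conductance channel of blood and epithelial cells, had none at an end.

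Of 15 auxiliary subunit genes 4 were marked, namely Kcnab2 (1384 bp), Kcnmb4 (583 bp), Kcnip4 (410 bp) and Kcnab3 (408 bp). The marked end of Kcnab2 is within 1 kb of an end of Nphp4. The 4 Kcne genes, which encode small single-span subunits, had no H3K4me3 at an end or in the body, and RAD21 was at an end of Kcne3. CTCF was at 3 auxiliary genes and RAD21 at 3, and 9 of the 15 had no mark at an end. Kcnrg, a regulator of channel assembly and the single gene outside these roles, had no peak.

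The median H3K4me3 length at channel genes was below that at coding genes at large, but its interval took in the latter. In the 42 marked genes the longest peak at an end had a median of 708 bp (95% interval from ranks 594 to 957 bp, spread between genes only), with quartiles of 542 and 1066 bp and a range of 316 to 1675 bp. The median over all 11973 marked coding genes was 926 bp, with quartiles of 693 and 1213 bp. Of the 42 peaks 16 were above that median, 7 above the upper quartile and 19 below the lower quartile. The 7 longest were at Kcnj12, Kcnma1, Kcnh3, Kcnab2, Kcnc4, Kcnu1 and Kcnk5. The 5 shortest were at Kcnt1, Kcnd3, Kcna5, Kcnj5 and Kcnab3. These spans are of called regions, and the lists hold no measure of height.

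Lengths also differed between genes with and without RAD21 at an end, which need not be the end with H3K4me3. The 20 marked genes with RAD21 at an end had a median of 625 bp and the 22 without it 1010 bp. Over all marked genes the medians were 932 bp with RAD21 and 918 bp without. For CTCF the channel gene medians were 686 bp (15 genes with it) and 816 bp (27 without), against 929 and 926 bp over all genes. The groups overlapped: Kcnk5 (1333 bp) and Kcng2 (1162 bp) had RAD21, while Kcna5 (387 bp) and Kcnj5 (400 bp) did not. The grouping follows the window and not the peak. At Kcnq5 (1135 bp) and Kcns3 (992 bp), counted without RAD21, the H3K4me3 peak overlapped a RAD21 peak outside the window. At Kcnd3 (321 bp) and Kcnk4 (957 bp), counted with it, RAD21 lay at the other end only. No test was run on these differences, since 1 library gives no spread between samples.

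**Figure D2:**
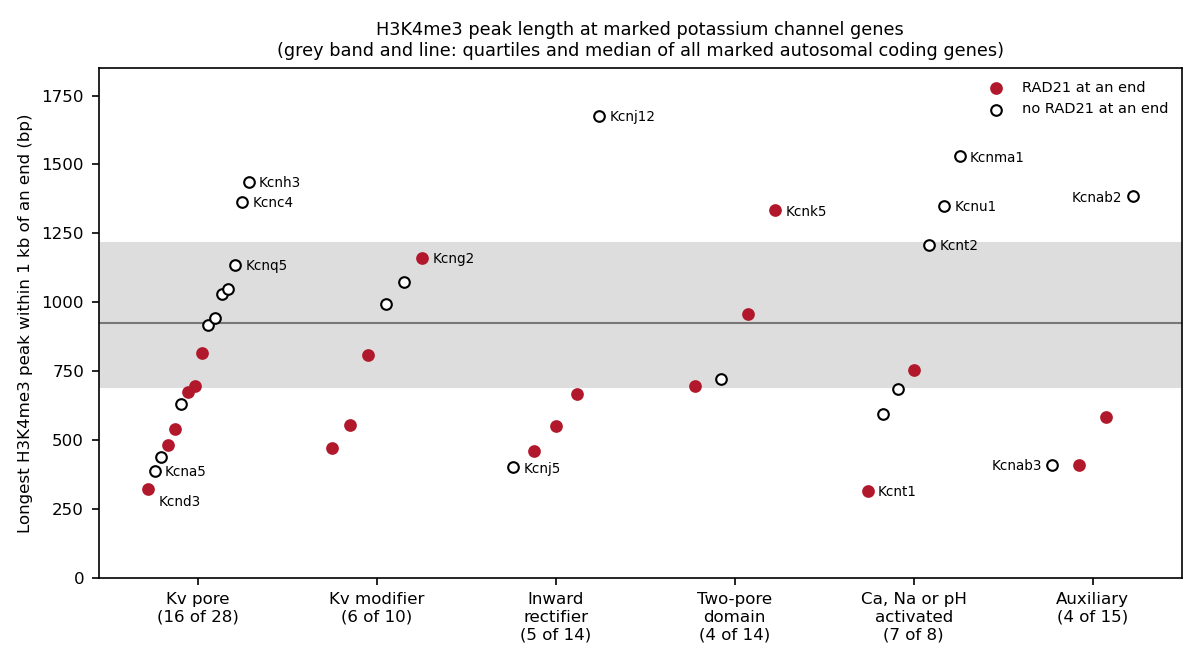
Length in bp of the longest H3K4me3 peak within 1 kb of an end (y axis) for the 42 marked channel genes, by role (x axis), filled where RAD21 was also at an end. The line and band give the median (926 bp) and quartiles (693 and 1213 bp) of all marked coding genes; 6 of the 7 genes above the band had no RAD21 at an end.

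RAD21 without H3K4me3 was found at 17 of 180 channel gene ends (9.44%), in 15 genes, against 6.81% of the ends of all autosomal coding genes. Among ends without H3K4me3 these were 17 of 136 (12.5%, background 9.88%). At gene level 11 genes had RAD21 at an end and H3K4me3 at neither (12.2%, 6.96 to 20.6%; background 6.92%). Within genes over 2 kb with strand, the share was 8 of 40 unmarked starts (20%, against 12.1%) and 5 of 63 unmarked far ends (7.94%, against 9.79%). The 17 peaks had a median length of 184 bp and ran from 72 to 732 bp. They lay a median of 59483 bp from the nearest H3K4me3 peak, and 15 of the 17 were more than 5 kb from one. RAD21 was at 20 of 42 genes with H3K4me3 at an end (47.6%, background 56.1%) and at 11 of 48 without (22.9%, background 16.4%), a difference of 24.7 percentage points (Newcombe 95% interval 4.98 to 42.2, counting error only). Over all coding genes the difference was 39.6 points. Restricted to peaks longer than the median of their list, it was -0.379 points in the channel genes and 18.4 in all genes.

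CTCF was called in the same window at 11 of the 17 ends and not at the other 6. Strand was known for 5 of those 6, and all 5 were starts. The genes were Kcnh5, Kcnh6, Kcna4, Kcnc1, Kcne3 and Kcnv2, and the RAD21 peaks of the last 5 were 72, 127, 73, 79 and 93 bp long. Kcnh5, which encodes an ether-a-go-go channel of the brain, stood apart by length. Its RAD21 peak spanned 732 bp, at chr12:75176831-75177562, with its midpoint 136 bp inside the annotated start. The nearest CTCF peak was 36804 bp away and the nearest H3K4me3 peak 201746 bp. By length it ranked 94 of the 74004 RAD21 peaks and 4 of the 32617 that overlap no CTCF peak. Among the 886 ends of coding genes with RAD21 but neither other mark, whose median was 109 bp, it was the longest.

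The peaks at Kcnh6, Kcnc1 and Kcne3 were close in length to the shortest call in the RAD21 list, 71 bp. At Kcnc1, which encodes a channel of fast-spiking neurons, and Kcnh6 the H3K4me3 gaps were 18887 and 12032 bp. At Kcne3 and Kcnv2 they were 15978 and 104474 bp, and at Kcna4, a Shaker family gene, 316182 bp, the widest of the 17. The Kcnh6 end lies within 1 kb of an end of Ace3.

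The bases before 4 starts are printed to show what these peaks lie on, from RefSeq for GRCm38.p6, the assembly that mm10 names. Each line holds the 250 bases before the start, 5′ to 3′ on the strand of the gene, with CpG dinucleotides in capitals. Kcnh5 (chr12:75177333-75177582, minus strand) has 16 CpG, and its RAD21 peak covers 230 of the 250 bases. Kcnh6 (chr11:106007898-106008147, plus strand) has 21 CpG, and its RAD21 peak covers 72 bases. Kcnd2 (chr6:21215096-21215345, plus strand) is shown beside them as a start under H3K4me3, with 22 CpG and all 250 bases covered by that peak. Kcna10 (chr3:107182893-107183142, plus strand) has no CpG and no peak.
Kcnh5: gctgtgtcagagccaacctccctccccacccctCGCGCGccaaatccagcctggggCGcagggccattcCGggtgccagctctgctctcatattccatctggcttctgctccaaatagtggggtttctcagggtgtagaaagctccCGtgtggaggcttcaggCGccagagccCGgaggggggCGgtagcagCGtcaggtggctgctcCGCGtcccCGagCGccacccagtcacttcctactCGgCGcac
Kcnh6: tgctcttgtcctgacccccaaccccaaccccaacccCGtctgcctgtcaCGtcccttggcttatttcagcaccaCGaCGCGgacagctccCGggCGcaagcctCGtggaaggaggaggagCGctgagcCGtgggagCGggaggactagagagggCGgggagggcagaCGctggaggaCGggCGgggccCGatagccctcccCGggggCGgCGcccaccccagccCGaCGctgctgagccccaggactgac
Kcnd2: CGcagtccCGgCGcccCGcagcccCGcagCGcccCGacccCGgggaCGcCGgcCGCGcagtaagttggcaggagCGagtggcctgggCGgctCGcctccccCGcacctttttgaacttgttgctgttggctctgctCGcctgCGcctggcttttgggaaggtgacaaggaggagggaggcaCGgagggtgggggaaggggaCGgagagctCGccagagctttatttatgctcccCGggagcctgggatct
Kcna10: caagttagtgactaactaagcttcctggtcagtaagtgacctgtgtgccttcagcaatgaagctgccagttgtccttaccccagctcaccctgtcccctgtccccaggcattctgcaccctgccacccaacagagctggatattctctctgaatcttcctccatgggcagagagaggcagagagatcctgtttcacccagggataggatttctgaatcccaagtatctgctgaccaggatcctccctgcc
The starts of Kcnh5, Kcnh6 and Kcnd2 all hold many CpG, although their marks differed.

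The 11 ends with both RAD21 and CTCF comprised 5 far ends, 3 starts and 3 ends of unknown strand. At Kcnj6 a 252 bp RAD21 peak spanned the annotated start and overlapped a 103 bp CTCF peak, 141003 bp from H3K4me3. Kcnk15 had a pair at each end, with RAD21 of 188 bp at the start and 248 bp at the far end, the latter near an end of Rims4. Kcnj11, the pore of the ATP-sensitive channel of the pancreatic beta cell, had RAD21 peaks of 377 and 197 bp at its ends. At Kcnh1 the 172 bp RAD21 peak was 1569 bp from H3K4me3, which lay at a listed start inside the annotated gene. The others were Kcnk9 (184 bp) and the far ends of Kcnd3 (377 bp), Kcnn4 (353 bp), Kcnk4 (169 bp, near Catsperz) and Kcnmb4 (126 bp). In comparison, the 18 ends with both RAD21 and H3K4me3 held 24 RAD21 peaks of median 172 bp, of which 9 overlapped CTCF and 5 had the shortest length of 71 bp.

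**Figure D3:**
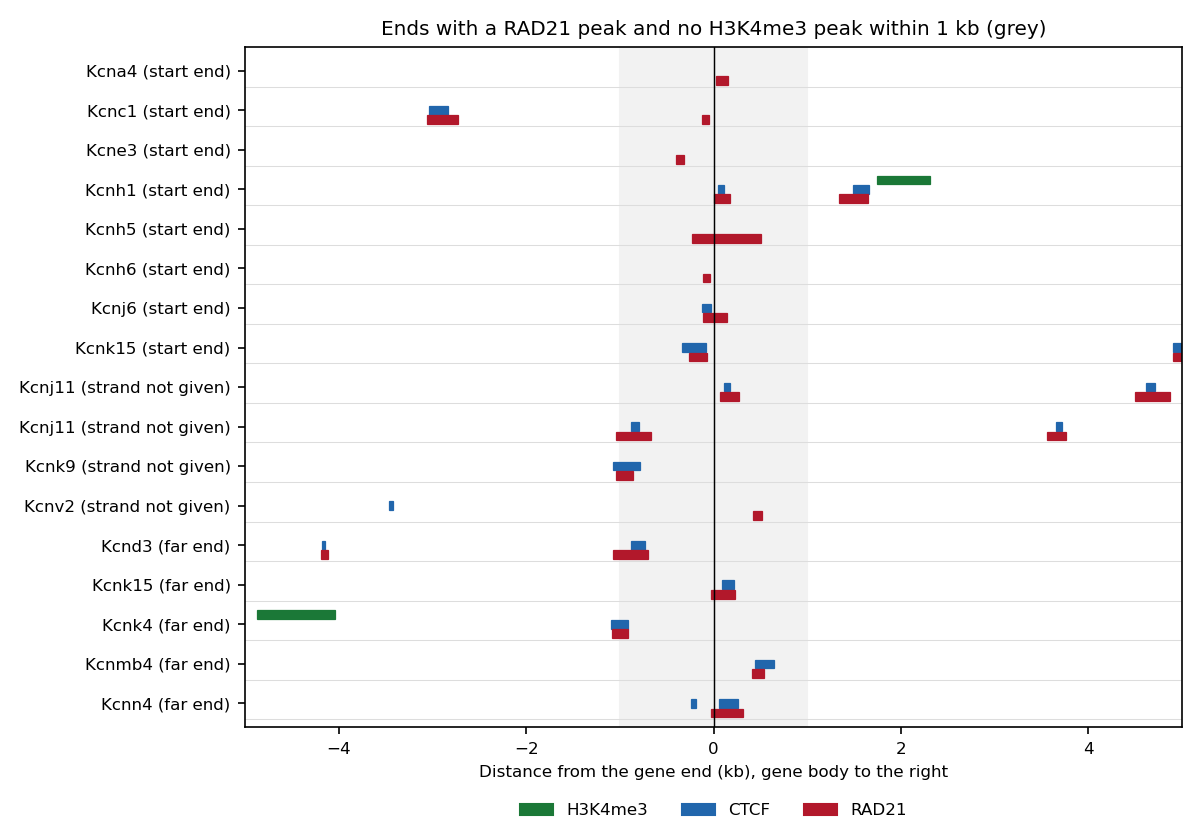
Peaks of H3K4me3, CTCF and RAD21 (coloured bars) around the channel gene ends with RAD21 and no H3K4me3 within 1 kb. The x axis gives distance from the end in kb, positive values inside the gene. The RAD21 bar at Kcnh5 runs from 230 bp before the start to 501 bp inside it, with no bar of another mark.

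In 6 genes CTCF lay at an end while RAD21 was at neither (6.67%, 3.09 to 13.8%; background 4.38%). Among them the CTCF peaks spanned 38 bp at Kcnj1, the potassium secretory channel of the kidney, 39 bp at Kcng1 and Kcnn3, 89 bp at Kcnq3 and 230 bp at Kcnip2. Those at Kcnj1, Kcng1 and Kcnn3 were close to the shortest CTCF call, 37 bp.

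The promoter table listed 92 starts for 67 of the channel genes, and several starts of 1 gene are not independent. CpG dinucleotides were counted in the 250 bases before and 50 bases after each start. H3K4me3 lay within 1 kb of 39 of the 92 (42.4%, background 58.4% of 20084 starts). Among starts with 10 or more CpG it lay at 24 of 42 (57.1%, 42.2 to 70.9%; background 89.8%). Among starts with fewer CpG it lay at 15 of 50 (30%, background 15.2%). Those 15 starts belonged to 12 genes, and 4 were starts of Kcnc2 with the same 437 bp peak nearby. A count of 1 start per gene was not made for starts with fewer CpG. By CpG count the marked shares were 6 of 23 starts with 0 to 4 CpG (26.1%, against 5.70% of all such starts), 9 of 27 with 5 to 9 (33.3%, against 33.2%), 8 of 15 with 10 to 19 (53.3%, against 81.5%), 9 of 16 with 20 to 29 (56.2%, against 93.1%) and 7 of 11 with 30 or more (63.6%, against 96.0%). The marked share rose less steeply with CpG count in the channel genes than in the whole table, a description without a test. The window of 1 kb was not varied for this comparison.

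The 18 starts with 10 or more CpG and no H3K4me3 belonged to 17 genes. The highest counts were 41 at Kcnc1, 33 at Kcnk2, a leak channel opened by stretch, and 30 at Kcnj6. Kcnh genes contributed Kcnh6 (24), Kcnh4 (23), Kcnh7 and Kcnh8 (21 each), Kcnh2 (19) and Kcnh5 (17). The others were Kcnk15 (24), Kcns1 (22), Kcna4 (20), Kcnip2 (18), Kcnip1 (16), Kcne3 (12), Kcnj3 (10) and Kcnk7 (10). Of the 17 genes 5 had H3K4me3 elsewhere, at an end or in the body. At Kcnh8 and Kcnh4 the nearest H3K4me3 peak lay not far outside the window, 1267 and 1456 bp from the annotated start. At Kcnh7 it was 422633 bp away. RAD21 lay within 1 kb of 8 of the 18 starts, in 7 genes, against 24.2% of all such starts. At Kcnk2, which had no mark at its annotated ends, this was a 95 bp peak at starts inside the gene, 336128 bp from H3K4me3.

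**Figure D4:**
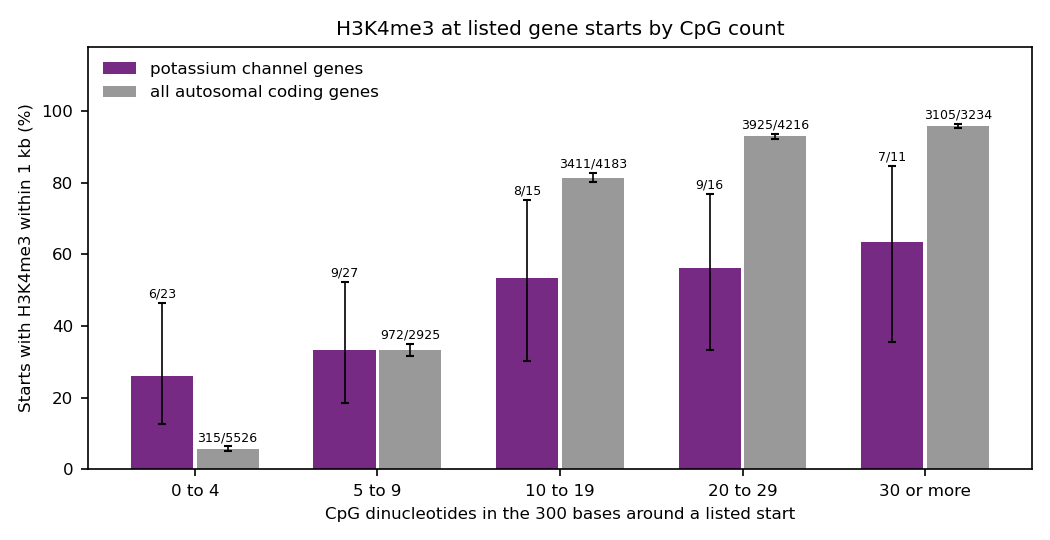
Share of listed starts with H3K4me3 within 1 kb (y axis, percent) by CpG count in 300 bases (x axis), for channel genes with Wilson 95% intervals and for all autosomal coding genes. The channel genes ran from 26.1% in the lowest group to 63.6% in the highest, against 5.70 and 96.0% for all genes.

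In 20 genes H3K4me3 was called inside the body and at neither end (22.2%, 14.9 to 31.8%; background 7.84%). Bodies were counted from 1 kb inside each end. In 12 of the 20 genes a body peak lay within 5 kb of an end, and some were just past the window, as at Kcna1 (1101 bp) and Kcnv1 (1168 bp). Among genes with none at an end the share was 20 of 48 (41.7%, against 18.6%). The median of their longest peaks was 505 bp. The longest were at Kcnip3 (1193 bp), a calcium-binding subunit, Kcnk1 (1033 bp), Kcna2 (1026 bp), Kcnj4 (851 bp), Kcnn4 (819 bp) and Kcnh6 (736 bp). Kcnk10 had 584 bp, Kcnk13 582 bp, Kcnh1 571 bp, Kcnmb2 528 bp, Kcnip2 443 bp, Kcnab1 431 bp and Kcna1 424 bp. The shortest were at Kcnv1 (375 bp), Kcnj9 and Kcns1 (374 bp each), Kcnj14 (311 bp), and Kcng4 and Kcnk3 (294 bp each, the shortest call in the list).

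Part of these peaks lay at a listed start inside the annotated gene. Of the 15 genes with strand, 8 had the peak within 1 kb of a listed start, namely Kcnh1, Kcnk10, Kcnk13, Kcnj4, Kcnip3, Kcnab1, Kcna2 and Kcnk1. In the other 7 it lay farther from any listed start. The 8 genes were thus counted as unmarked at their ends while a listed start inside the gene was marked. Counted anywhere in the gene, H3K4me3 was present in 62 of the 90 (68.9%, against 65.8% of all coding genes). Gene length differed between the groups, with a median of 34546 bp in channel genes and 17491 bp in all coding genes, and its part in these shares was not tested.

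Over all channel gene bodies together, peaks of each list were sparser per length than in coding genes at large. The bodies held 163 CTCF peaks, or 1.61 per 100 kb (exact Poisson 95% interval 1.37 to 1.87, counting error only), against 2.5 in all genes. They held 240 RAD21 peaks, or 2.36 per 100 kb (2.07 to 2.68), against 3.39, and 39 H3K4me3 peaks, or 0.384 (0.273 to 0.525), against 0.565. Of the RAD21 peaks 53.8% overlapped CTCF, against 59.1% in all bodies. Gene length moved with these densities. In the 53 genes up to 50 kb the channel genes had 4.20 CTCF and 4.43 RAD21 peaks per 100 kb, against 3.92 and 4.52. In the 17 genes over 200 kb they had 0.953 and 1.72, against 1.48 and 2.43. For H3K4me3 the short channel genes had the higher density, 2.33 against 1.06, and the long ones the lower, 0.107 against 0.258.

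Kcnip1, which encodes a calcium-binding subunit of A-type channels, had the most body peaks, 13 of CTCF and 13 of RAD21. Kcnma1 had 8 of CTCF and 12 of RAD21, Kcnip4 had 6 and 12, and Kcnj6 had 6 and 12. Kcnq5 followed with 11 RAD21 peaks, 4 of them with CTCF, and Kcnn2 and Kcnab2 with 7 and 6 CTCF peaks. Across the genes, length correlated with the count of body peaks at a Spearman rho of 0.83 for RAD21, 0.71 for CTCF and 0.09 for H3K4me3, a description over genes that are not independent. The longest H3K4me3 peak in any channel gene body, 1846 bp, was in Kcnn2.

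**Figure D5:**
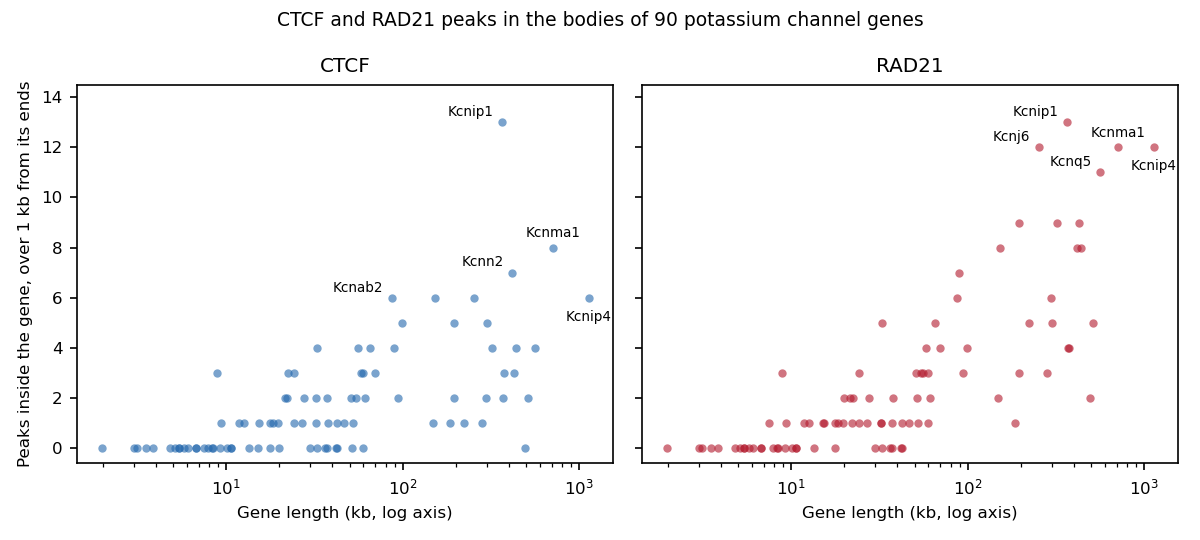
Number of CTCF and RAD21 peaks in the body (y axis) against gene length (x axis, log scale) for each channel gene. Counts rose with length, up to 13 of each at Kcnip1.

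Genes that work with the channels but carry other symbols were counted in the same way. Of 9 partner genes 4 had H3K4me3 at an end (44.4%, background 57.9%). These were Amigo1 (1306 bp), Lrrc26 (730 bp), and the sulfonylurea receptor genes Abcc8 (602 bp) and Abcc9 (354 bp). Abcc8 was thus marked while Kcnj11, the pore that its product joins, was not. Among pacemaker channel genes, H3K4me3 spanned 1634 bp at Hcn4, 732 bp at Hcn3 and 359 bp at Hcn2. H3K4me3 was at 4 of 14 sodium channel genes (28.6%), 10 of 25 calcium channel genes (40%) and 4 of 7 genes of the sodium-potassium pump (57.1%). The background was 57.9%. RAD21 was at 6, 8 and 1 of these (42.9, 32 and 14.3%, background 39.4%). It stood without H3K4me3 at any end in 5 of the 14 sodium and 6 of the 25 calcium channel genes, against 6.92% of all coding genes.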

How the data were processed

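ChIP-exo peaks of H3K4me3, CTCF and RAD21 in Bruce-4 cells were analysed as the authors deposited them: each peak is given by its position alone, with no score or count, so length was the only other quantity. Per the submitters' processing notes, the tools were MACS2, bedtools 2.30.0, Bowtie2 2.4.5 and Picard 2.27.4, with build mm10 and no roles stated. Calling settings and any control were not given in the sources used here. For CTCF a single union list, filed with library 2, was used, and a list of library 1 was not analysed here. Of the autosomal RAD21 peaks 11912 had the shortest length in the list, 71 bp.

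Gene positions and promoters came from RefSeq tables of GRCm38.p6, and strand from the promoter table (67 of 90 genes). Ends were windows of 1 kb on either side, an overlap was at least 1 bp, and bodies began 1 kb inside each end. Peak sequences were not used here. A planned search for a CTCF motif was run and is not reported, and the values of some genes are not reported here. Python 3.11.15, numpy 2.4.6, pandas 2.3.3, scipy 1.17.1 and matplotlib 3.10.9 were used. Overlap counts were checked on simulated peaks, with 0 planted genes missed, and against bedtools 2.31.1, with 0 of 180 ends differing for each list. No test between samples was possible with 1 list per antibody, so shares are set beside those of all 20661 autosomal coding genes.

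The genes, roles and lists were chosen with earlier results of these data known. Genes were named by rule: the 10 longest and 5 shortest H3K4me3 peaks at ends, every gene with RAD21 at an end without H3K4me3, every gene with H3K4me3 in the body alone, the 5 with most CTCF and the 5 with most RAD21 peaks in the body, ends near another coding gene that had a peak, and the smaller side of each subfamily. Other names complete a count or group. Of the sodium and calcium channel lists, 14 of 15 and 25 of 26 symbols were found. The alternatives changed the window, the peaks kept, the overlap rule and the genes counted. Those on CpG count, and the CpG comparison itself, were added after seeing the data.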

Additional observations from a re-analysis of the deposited data

How the results depend on the processing

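Of 53 alternatives 35 moved no value beyond its interval or count limit, 17 moved one and 1 reversed it. With windows of 2.5 kb the shares of channel genes at an end were 57.8% for H3K4me3 (all coding genes 62.2%), 42.2% for CTCF (42.3%) and 60% for RAD21 (54.9%), and 31 of 180 ends had RAD21 without H3K4me3 (12.9% of the ends of all coding genes). With windows of 500 bp CTCF fell to 15.6% (19.6%). With only peaks above the median length the shares were 26.7% for H3K4me3, 11.1% for CTCF and 21.1% for RAD21 (all genes 44.0, 17.1 and 24%). With only the longer RAD21 peaks, 11 of 180 ends and 6 of 90 genes had RAD21 without H3K4me3 (3.84% of the ends and 4.11% of the genes of all kinds). Without genes that share an end, H3K4me3 was at 48% (50.6%). With peaks counted anywhere in the gene the shares were 68.9% for H3K4me3, 68.9% for CTCF and 81.1% for RAD21 (65.8, 57.4 and 66.9%). The RAD21 share of H3K4me3 genes minus that of other channel genes reversed to -0.379 points with the longer peaks (interval -16.6 to 20.9), and its interval also took in 0 with windows of 500 bp (16.8, -2.14 to 35.7) and without the shortest RAD21 peaks (15.2, -3.72 to 33.1). Densities in bodies fell to 0.0788 (H3K4me3), 0.739 (CTCF) and 1.19 (RAD21) per 100 kb with the longer peaks (all genes 0.185, 1.23 and 1.63). H3K4me3 rose to 0.774 when ends were counted in (all genes 1.76). The median H3K4me3 length at ends lay between 701 and 867 bp over its alternatives (all genes 929 to 1030 bp). The marked share of CpG-rich starts lay between 54.7 and 57.5% (all genes 86.7 to 92.9%). No paired analysis was possible because each antibody had 1 peak list. Depth was unknown, and the spread between cultures was not measured.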

Other observations

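Several channel genes lie next to or near each other, and some of these neighbours differed in their marks while others did not. On chromosome 6 the Shaker family genes Kcna5, Kcna1 and Kcna6 follow one another. H3K4me3 was at an end of Kcna5 (387 bp) and Kcna6 (632 bp) and only in the body of Kcna1 (424 bp). The Kcna1 peak lay 1101 bp from an end of the gene, just outside the window, so this contrast rests on the window. The 100907 bp between Kcna5 and Kcna1 held 4 CTCF and 5 RAD21 peaks, and the 62526 bp between Kcna1 and Kcna6 held 4 and 3. On chromosome 3 Kcna3 (816 bp at an end), Kcna2 (1026 bp in the body) and Kcna10 (no H3K4me3) follow in the same way. The Kcna2 peak lay 178 bp from a listed start inside the gene, so Kcna3 and Kcna2 were both marked near a start. The 52753 bp between Kcna3 and Kcna2 held 1 CTCF and 1 RAD21 peak, and the 68137 bp between Kcna2 and Kcna10 held 2 and 3.

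Among the inward rectifiers, Kcnj9 and Kcnj10 lie 11887 bp apart on chromosome 1, and an end was marked at Kcnj10 (458 bp) but not at Kcnj9. Kcnj5 and Kcnj1 lie 28037 bp apart on chromosome 9, and an end was marked at Kcnj5 (400 bp) but not at Kcnj1. Kcnk5 (1333 bp) and Kcnk16 (no peak) lie 79592 bp apart on chromosome 14, with 4 CTCF and 4 RAD21 peaks between them. Kcne2 and Kcne1, 47867 bp apart on chromosome 16 with 3 other coding genes between them, both had no peak. The stretch between them held 1 H3K4me3, 5 CTCF and 7 RAD21 peaks. Kcnmb1 lies inside Kcnip1 on chromosome 11, and H3K4me3 was at neither gene.

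An end within 1 kb of an end of another coding gene was found in 15 channel genes (16.7%, against 25.6% of all coding genes), at 16 ends. Of these ends 6 had a peak and 2 had H3K4me3, those of Kcnab2 and Kcnu1.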
